A study of Saccharomyces cerevisiae with 3 samples.

Results

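The transcript levels of wild type budding yeast (*Saccharomyces cerevisiae*, WT) growing exponentially in glucose medium were read from a single array, as the order of 5449 genes from the highest signal to the lowest. Every gene that the platform annotation names was included, and none was chosen by its value. The WT array was 1 of 3 in the study, which hybridised 1 array per strain: WT, *spt3Δ* and *spt8Δ*. All 3 strains carry the BY4742 background in the labels and were grown at 30 °C with shaking in 5 mL of YPD (rich medium with glucose) to an optical density of 0.7, and both mutants had their gene replaced by *KanMX*. BY4742 is a haploid laboratory strain of mating type α with the *his3*, *leu2*, *lys2* and *ura3* auxotrophies. The study compared the mutants with WT to ask how 2 subunits of SAGA, a coactivator complex that acetylates histones and contacts the TATA-binding protein, affect silencing near telomeres. Here the WT array was described on its own, and both mutant arrays were used only to see how far the order depended on the array.

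A yeast cell that grows fast on glucose makes most of its ATP by fermentation to ethanol, even with oxygen present. It spends much of its transcription on ribosomes, the translation machinery and glycolysis. Genes for other carbon sources, for much of respiration and for stored carbohydrates are under glucose repression, and genes for meiosis and for the other mating type are kept off in a haploid cell.

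The array was an Affymetrix Yeast Genome 2.0 array, on which each gene is read by a set of short probes near the 3′ end of its transcript. The value is the MAS 5.0 signal, a linear fluorescence intensity scaled so that the trimmed mean over all probe sets was 500.4 on the WT array and 500.3 on each mutant array. Probes differ in how well they bind, so an order of signals is not an exact order of transcript molecules. With 1 array per strain there was no replicate, so no standard error and no test could be given.

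Probe sets for another species, the fission yeast *Schizosaccharomyces pombe*, are on the same array, and its RNA was not in the sample. The 95th percentile of these 1746 probe sets was 7.17 in WT and was taken as the background. Of the 5449 genes, 5340 were above it and 109, or 2.0%, were not. The lower signals spread over the background range with no step at this level: *UTR5*, the dimmest gene counted as above it, had a signal of 7.17, and *YER085C*, the brightest counted as not above it, had 7.15. The 4 genes next above were *LDS1* at 7.27, *HMS1* at 7.30, *YGR174W-A* at 7.32 and *YIL046W-A* at 7.33. The 4 next below were *YHL015W-A* at 7.15, *SAE2* at 7.12, *YML054C-A* at 7.08 and *DAL80* at 6.86.

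The signals ran from 15308 for *RPS31* to 0.090 for *YFR057W*, around a median of 430. There were 107 genes above 10000, 1362 between 1000 and 10000, 3186 between 100 and 1000, and 685 between the background and 100. The band from 100 to 1000 alone held 58.5% of the genes, while few genes carried the summed signal. The 54 highest genes held 10.03% of it, the 545 highest, a share of 10% of all genes with signals from 3393 up, held 56.3%, and the 2724 lowest held 7.39%. At the upper end the curve was flat, since *RPS31* was only 1.33-fold above the gene at rank 60.

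**Figure D1:**
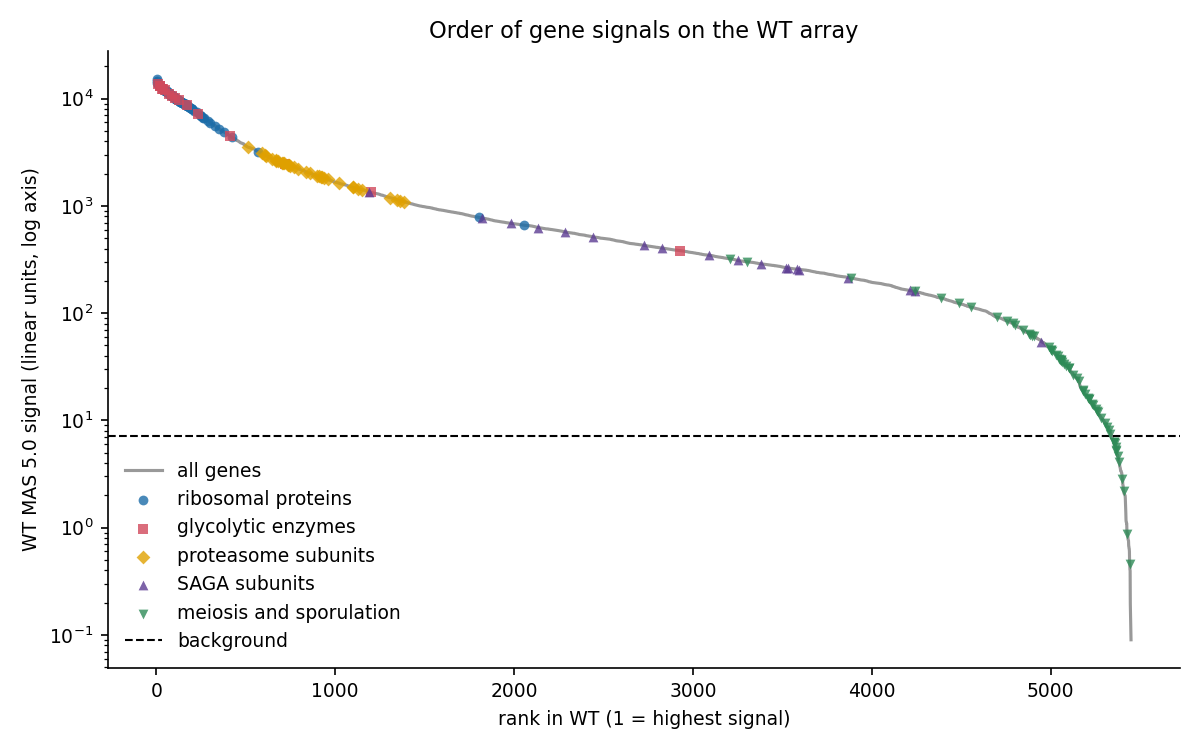
WT MAS 5.0 signal (log axis) of all 5449 genes against their rank, with 5 groups of genes marked and the background of 7.17 as a dashed line. Ribosomal proteins and glycolytic enzymes crowd at the left, proteasome subunits form a narrow run between 1093 and 3521, and SAGA subunits spread around the median. Most meiotic genes lie toward the right end, with 12 of 63 not above the background.

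The error of such an order was judged from genes read by more than 1 probe set. For the 47 genes with several, the brightest and dimmest probe set of the same gene differed by a median of 1.66-fold and by 15.1-fold at the 90th percentile. In 9 of the 47 the range was over 4-fold, and the widest was 104-fold. Only 2 of these genes had no probe set shared by design with a related gene, so the figures largely describe such families. On the log2 scale the SD within a gene was 1.42, against 2.38 over all genes. Neighbours in the order that differ by less than about this spread were therefore not told apart.

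The array's control transcripts gave a further measure, because some genes are read at both ends. The 3′ end was brighter than the 5′ end by 1.32-fold for *ACT1* (actin), 1.02-fold for *RIP1* (a respiratory chain protein), 2.80-fold for *SPT15* (the TATA-binding protein) and 22.8-fold for *MED17* (a Mediator subunit). For *EAF5*, *WBP1* and *TDH1* the 3′ end was brighter by 3.01-fold, 3.30-fold and 1.92-fold. The ratio of *TDH1* was 5.97 in *spt3Δ* and 3.16 in *spt8Δ*. *URA3* was not above background at either end in WT. The part of a transcript that is probed can thus shift its signal strongly, and the share of this in the order was not tested. The added spike-in RNAs rose in WT from 332 for bioB through 860 for bioC and 4330 for bioD to 11015 for cre, read at their 3′ ends. On the *spt3Δ* and *spt8Δ* arrays cre had 8541 and 8965, so the brightest spike was highest on the WT array.

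The mating type genes matched the BY4742 label. The α-specific genes were among the brightest of the array: *MF(ALPHA)1* and *MF(ALPHA)2*, which encode the α-factor pheromone, had 9816 and 9414. *STE3*, the receptor for a-factor, had 3727, the agglutinin gene *SAG1* had 5826 and the a-factor barrier gene *AFB1* had 6646. The 7 a-specific genes all stood near the bottom, between 7.97 for *ASG7* and 50.4 for *STE6*, the a-factor exporter. Between them were *BAR1* (39.5), *STE2*, the receptor for α-factor (48.3), *AGA2* (14.6) and the a-factor genes *MFA1* (28.6) and *MFA2* (24.0). No α-specific gene overlapped any a-specific gene on any of the 3 arrays.

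The auxotrophic genes were read in the same way. *URA3* had 1.13 and *LYS2* had 4.17, both not above background. *LYS2* was not above background in *spt3Δ* (2.80) or *spt8Δ* (7.20) either. *LEU2* was low but above background on each array, with 9.50 in WT, 18.2 in *spt3Δ* and 34.0 in *spt8Δ*. BY4742 carries a *leu2* allele, and the strain table of the study lists *LEU2* as deleted. A low signal above background is therefore not by itself evidence of a transcript of the named gene. *MET17*, the gene formerly called *MET15*, had 6686. The strain table of the study lists a MATa strain without *MET15* and with *LYS2*, and the signals went with the label and not with that table. *HIS3* had 1589, although BY4742 carries a *his3* allele; that allele removes only part of the gene, and a probe set outside that part checks nothing.

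**Figure D2:**
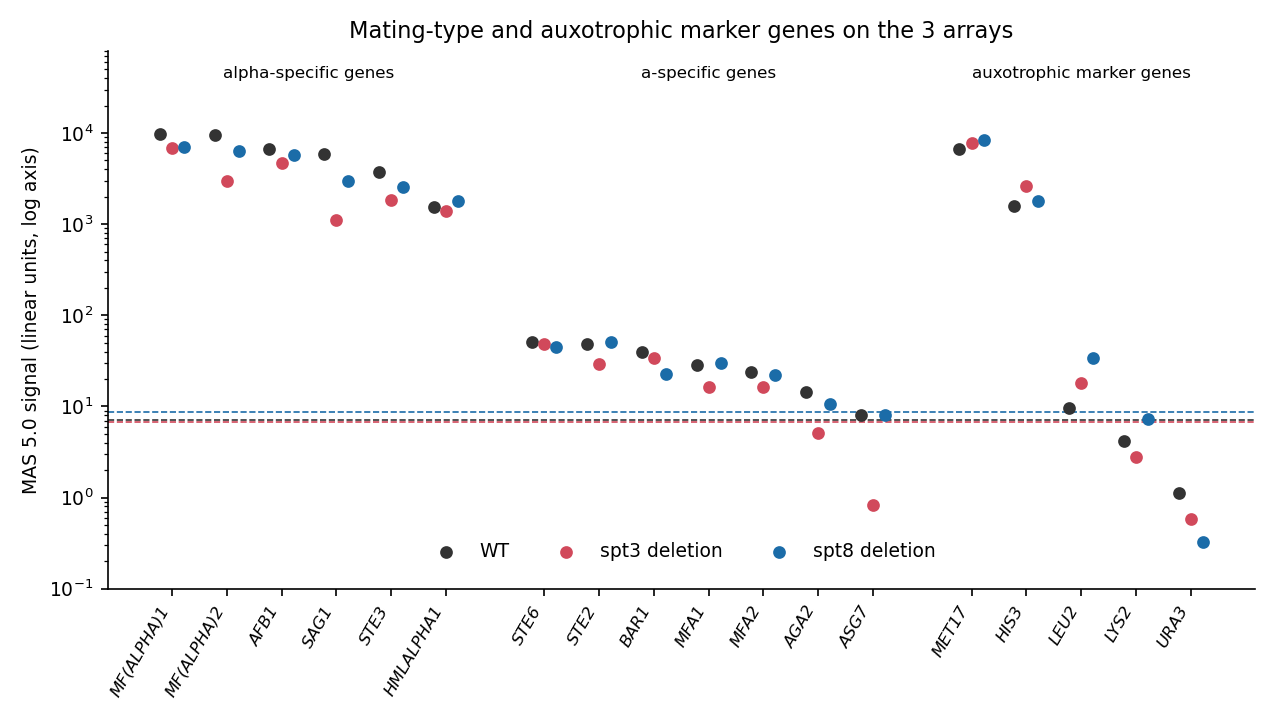
MAS 5.0 signal (log axis) of the α-specific, a-specific and auxotrophic genes on the WT, *spt3Δ* and *spt8Δ* arrays, with the background of each array as a dashed line. The α-specific genes lie above 1000 on all 3 arrays and the a-specific genes below 51, while *LYS2* and *URA3* are under the background on each.

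The gene deleted in each mutant was checked next. *SPT3* had a WT signal of 288, against 0.416 in *spt3Δ* and 332 in *spt8Δ*, and *SPT8* had 346 in WT, 514 in *spt3Δ* and 5.20 in *spt8Δ*. The deleted gene was thus not above background on its own array, and both genes had ordinary mid-range signals in WT.

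The 30 highest signals were dominated by translation. *RPS31*, which encodes a small subunit protein made as a fusion to ubiquitin, led with 15308, and the 30th gene, *RPS14A*, had 12644, only 1.21-fold less. The ranks within the 30 were thus inside the error given above, and the 30 were read as a set. Of these, 17 were cytosolic ribosomal proteins. The small subunit was represented by *RPS31*, *RPS17A* (14606), *RPS21A* (14078), *RPS15* (13824), *RPS4B*, *RPS13*, *RPS21B*, *RPS6B* and *RPS14A*. The large subunit was represented by *RPL3* (13664), *RPL30* (13456), *RPL16B*, *RPL25*, *RPL16A*, *RPL32*, *RPL12B* and *RPL1B*.

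Translation factors took a further 5 places. *EFT2* (14489) encodes elongation factor 2, which moves the ribosome along the mRNA, and *YEF3* (14391) encodes elongation factor 3, an ATPase that fungi need in addition. *TEF2* (13042) and *EFB1* (12666) encode elongation factor 1A and its exchange factor, and *TIF2* (12968) encodes the RNA helicase eIF4A of translation initiation. *TMA19* (14218), a protein that associates with ribosomes, ranked just below *YEF3*.

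The remaining 7 genes came from other functions. Glycolysis contributed *TPI1* (triose phosphate isomerase, 13580), *GPM1* (phosphoglycerate mutase, 13121) and *CDC19* (pyruvate kinase, 13087). *TSA1* (13972), a peroxiredoxin that removes peroxides, *ACT1* (13804), *SSA2* (13408), a cytosolic Hsp70 chaperone, and *CCW12* (13353), a mannoprotein of the cell wall, completed the set. For 6 of the 30, *EFT2*, *RPS4B*, *TEF2*, *TIF2*, *RPS6B* and *RPL1B*, the probe set is one shared between related genes, so the signal may include that of a near-identical copy.

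To describe functions, 53 lists holding 1315 genes were read, ordered by the rank percentile of their median member (100 for the highest signal, 50 for the middle of all genes). The median lay among the top 10% of genes for 13 lists and below the middle for 21. The lists hold 24.1% of the genes and 51.0% of the summed signal, and 345 of the 545 highest genes were in one of them. Of the listed genes, 24, or 1.83%, were not above background, near the 2.0% of all genes. There were 45 lists without such a member.

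**Figure D3:**
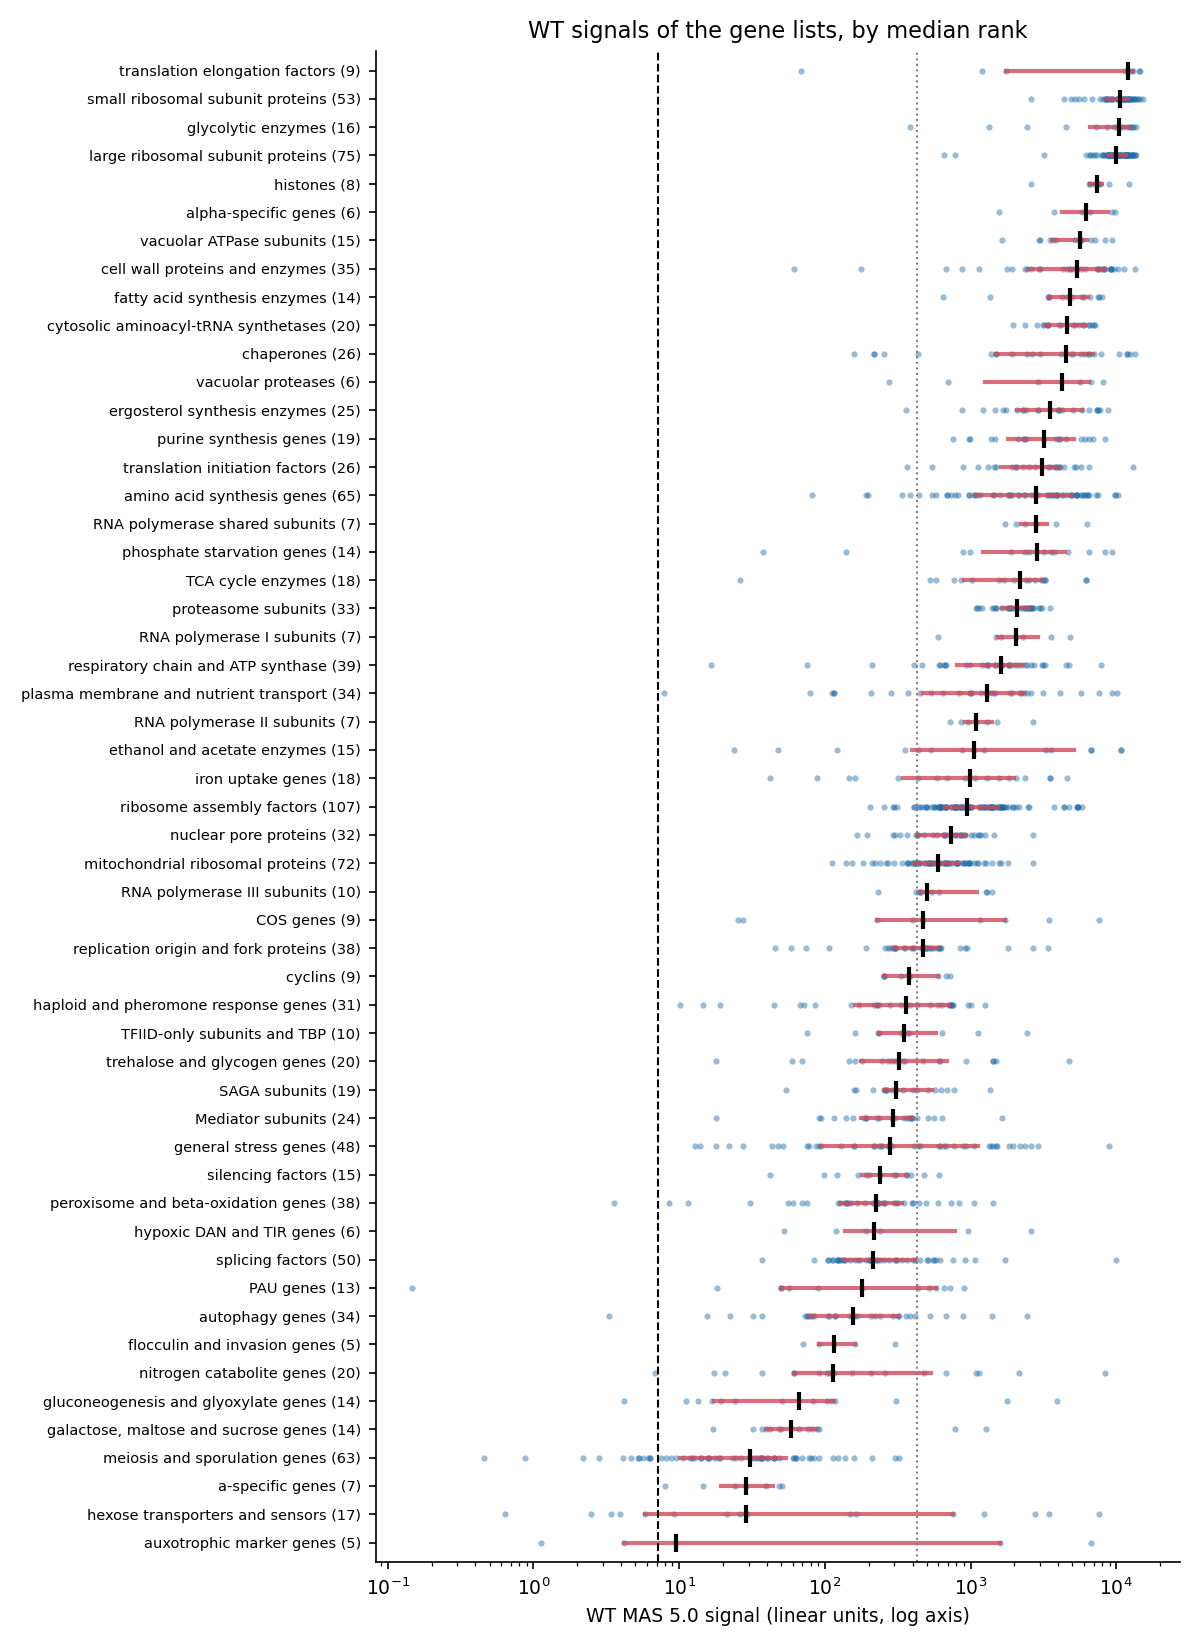
WT MAS 5.0 signal (log axis) of each gene in 53 lists, 1 point per gene, with the median as a black tick and the quartiles as a red line; the number of genes is in brackets. The dotted line marks the median of all genes (430) and the dashed line the background (7.17); translation, glycolysis and histones lie at the top, and meiosis, a-specific genes and most hexose transporters at the bottom.

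The ribosome itself was the largest block. All 128 measured cytosolic ribosomal protein genes were above the median of all genes, and 124 were among the 545 highest. Together they made up 2.35% of the genes and 18.5% of the summed signal. The median was 10573 for 53 small subunit genes and 9970 for 75 large subunit genes, and the quartiles lay 1.39-fold and 1.30-fold apart, against 6.08-fold for all genes. These quartiles lie at the flat upper end of the curve, where 107 genes exceeded 10000, and the part of that in their narrow range was not tested.

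Only 4 ribosomal protein genes fell outside the 545 highest. *RPL15B* had 660, *RPL41A* 780, *RPS9A* 2608 and *RPL22B* 3187. *RPL41A* encodes a peptide of very few residues and its probe set is shared with its copy. The other three are each 1 of a duplicated pair, whose partner was bright.

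Most yeast ribosomal proteins are encoded by such a pair of genes, and 50 pairs could be compared. The brighter copy exceeded the dimmer by a median of 1.18-fold, and in 45 pairs by less than 2-fold. *RPL27A* (7951) and *RPL27B* (7958), for example, had nearly the same signal. The A copy was the brighter in 26 of 50 pairs. These ratios were below the usual spread between probe sets of 1 gene, so for most pairs a difference was not detectable.

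In 5 pairs the copies differed by over 2-fold. *RPL15A* (9992) exceeded *RPL15B* by 15.1-fold, *RPS9B* (11663) exceeded *RPS9A* by 4.47-fold, and *RPL22A* (10518) exceeded *RPL22B* by 3.30-fold. *RPS19B* (12613) exceeded *RPS19A* (4350) by 2.90-fold, with a shared probe set, and *RPS14A* exceeded *RPS14B* (5987) by 2.11-fold. The brighter copy of each of these pairs was also the brighter on both mutant arrays; on the log2 scale the ratio of *RPL15A* to *RPL15B* was 3.92 for the WT array, 2.95 for *spt3Δ* and 3.50 for *spt8Δ*.

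The other parts of the translation machinery followed in steps. Of 9 elongation factor genes, 6 were among the 545 highest, with *TEF4* (12031) and *HYP2* (11420) in addition to those named. *HYP2* encodes eIF5A, which helps the ribosome past difficult peptide bonds. The low members were *CAM1* (1750), *ANB1* (1195) and *HEF3* (68.1), the last a second gene for elongation factor 3. *YEF3* exceeded *HEF3* by 211-fold, and *HYP2* exceeded *ANB1*, the eIF5A gene used without oxygen, by 9.55-fold.

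The 26 initiation factor genes had a median of 3088. Above *CDC33* (6481), which encodes the cap-binding protein eIF4E, stood only *TIF2*. The lowest were *TIF4632* (368), a scaffold eIF4G, and *GCD2* (539), a subunit of the exchange factor eIF2B. The other eIF2B genes *GCD6* (886), *GCD1* (1314), *GCD7* (1444) and *GCN3* (1499) were also in the lower part of the list.

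The 20 cytosolic aminoacyl-tRNA synthetases, which load tRNAs, had a median of 4591 and a narrow range. *GRS1* (glycine, 7184) and *ILS1* (isoleucine, 7008) were the highest, and *WRS1* (tryptophan, 1943) and *GLN4* (glutamine, 2354) the lowest. All 20 were above the median of all genes and 14 were among the 545 highest.

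The 107 ribosome assembly factors, which build ribosomes in the nucleolus, had a median of 945, below those of both lists of ribosomal proteins. Their highest members were *NOP10* (5779) and *NOP58* (5483), core proteins of the particles that modify rRNA. Others of these particles, *GAR1* (5466), *NHP2* (5417), *NOP1* (5374), *CBF5* (4395) and *NOP56* (4352), stood close by. The lowest were *RRP36* (203) and *FAL1* (254), and 100 of the 107 were above the median of all genes.

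Glycolysis was the next brightest pathway. The median of 16 enzyme genes was 10369, 13 were among the 545 highest, and 15 were above the median of all genes. From glucose to pyruvate the brightest gene at each step had 8660 (*HXK2*, hexokinase), 11914 (*PGI1*), 10618 (*PFK2*), 11127 (*FBA1*, aldolase), 13580 (*TPI1*), 9642 (*TDH3*), 12366 (*PGK1*), 13121 (*GPM1*), 12334 (*ENO2*, enolase) and 13087 (*CDC19*). The steps thus lay within the spread seen between probe sets of 1 gene. *PFK1*, the other phosphofructokinase subunit, had 7264.

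The dim glycolytic genes were isoenzymes. *PYK2* (383), a pyruvate kinase that glucose represses, was 34.1-fold below *CDC19*. *HXK1* (1334) and *GLK1* (2442), also repressed by glucose, were 6.49-fold and 3.55-fold below *HXK2*. *ENO1* (10121) was within 1.22-fold of *ENO2*, and *TDH1* (4508) was 2.14-fold below *TDH3*. The array thus held strong and weak isoenzyme contrasts in a single pathway.

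Fermentation continued the pattern. *PDC1* (10844), the main pyruvate decarboxylase, exceeded *PDC5* (436) by 24.9-fold and *PDC6* (23.7) by 457-fold. With 50 added to each signal, which damps ratios to dim genes, the log2 ratio of *PDC1* to *PDC6* went from 8.83 to 7.21. *ADH1* (10719), which makes ethanol from acetaldehyde, exceeded the mitochondrial *ADH3* (6762) by 1.59-fold, *ADH4* (1062) by 10.1-fold and *ADH5* (878) by 12.2-fold. *ADH2* (121), the glucose-repressed enzyme that consumes ethanol, was 88.7-fold below *ADH1*.

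In the branch to acetate and acetyl-CoA, *ALD6* (6732), the cytosolic aldehyde dehydrogenase, was bright, and *ALD3* (47.7) was near the bottom. *ACS2* (3570), the acetyl-CoA synthetase of glucose-grown cells, exceeded *ACS1* (535) by 6.67-fold. In glycerol synthesis *GPD1* (2890) exceeded *GPD2* (239) by 12.1-fold. In each of these pairs the order was the same on both mutant arrays.

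**Figure D4:**
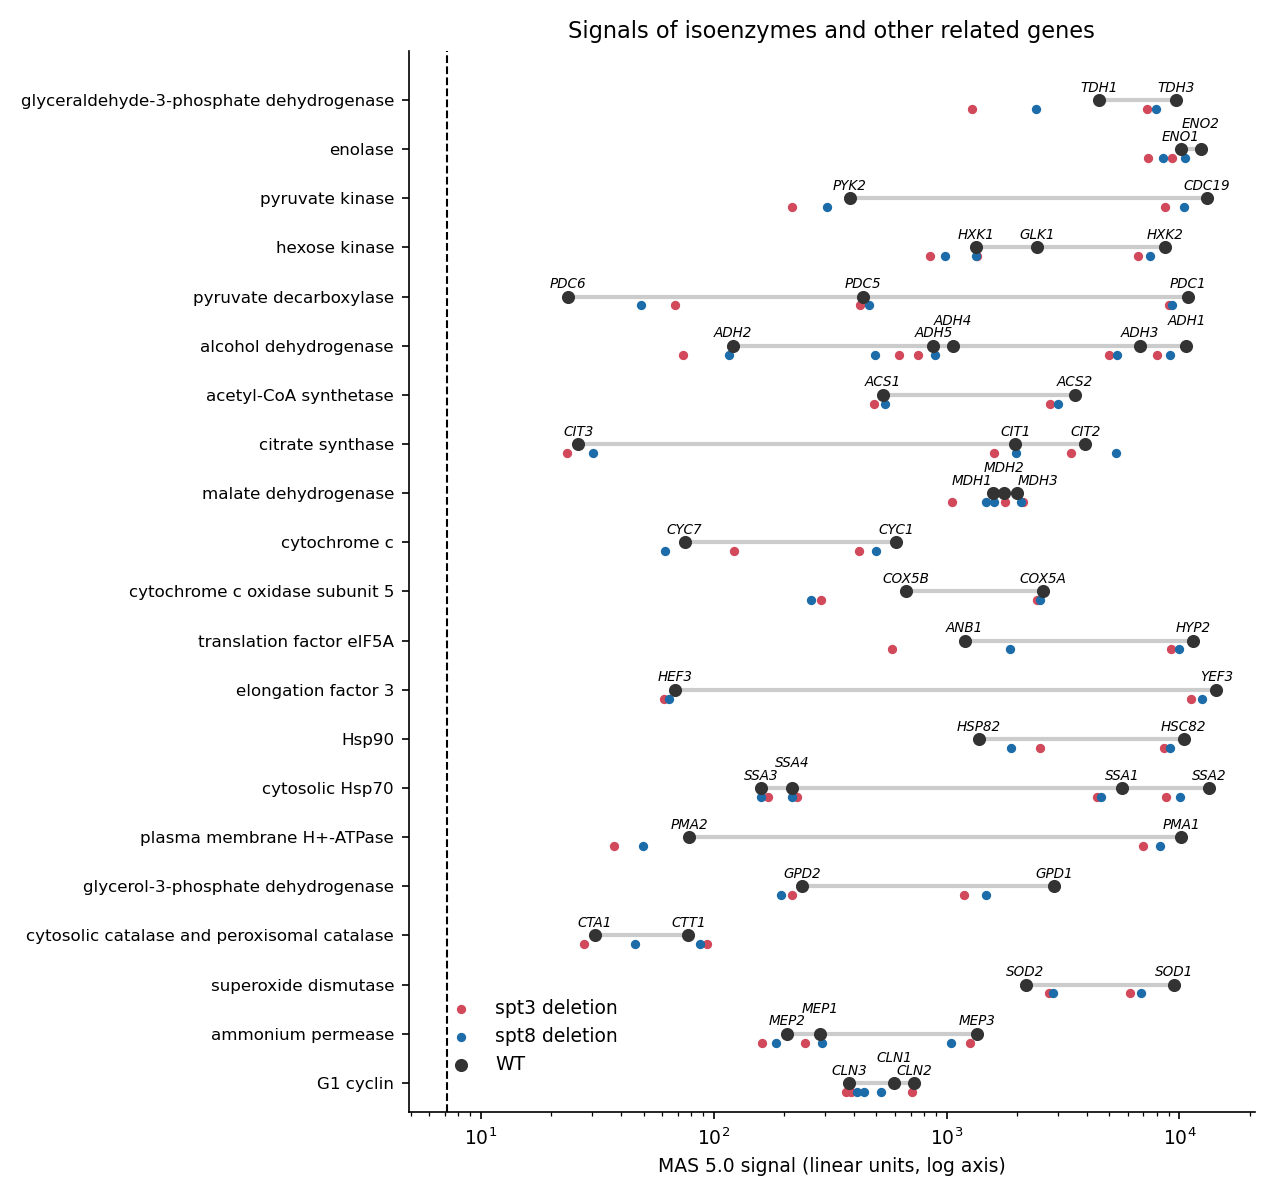
MAS 5.0 signal (log axis) of the genes of 21 sets of isoenzymes or related proteins, with WT in black on a grey line that spans the set and the *spt3Δ* and *spt8Δ* arrays as smaller points just under it. In 20 of the 21 sets the brightest gene was the same on all 3 arrays; the exception was the G1 cyclins.

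Glucose enters through a family of transporters, and these were read very unevenly. Of 17 hexose transporter and sensor genes, 2 were among the 545 highest and 5 were not above background. *HXT3* (7577), a transporter of low affinity, was highest, followed by *HXT2* (3479) and *HXT1* (2769). *HXT7* (1237, shared probe set) and *HXT4* (759) came next, and the glucose sensors *SNF3* (164) and *RGT2* (150) had modest signals. *HXT5* (28.5) and the galactose transporter *GAL2* (26.4) were dim, and *HXT8* (5.87), *HXT10* (3.95), *HXT13* (3.39), *HXT14* (2.49) and *HXT15* (0.638) were not above background. Those of *HXT13* and *HXT15* are shared probe sets, so none of the genes they cover gave a signal there.

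Genes that glucose represses were low as groups. The 14 genes of gluconeogenesis and the glyoxylate cycle had a median of 66.6, at percentile 10.6, and 7 of them were in the lowest 10% of genes. *FBP1* (13.6) and *PCK1* (110), whose enzymes reverse glycolysis, *ICL1* (50.7) and *MLS1* (11.1) of the glyoxylate cycle, and the activator genes *CAT8* (16.8) and *SIP4* (19.3) were all below the median. *SFC1* (4.202), a mitochondrial carrier needed for growth on ethanol or acetate, was not above background. The exceptions were *CIT2* (3944), the peroxisomal citrate synthase, and *MDH2* (1769), the cytosolic malate dehydrogenase.

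The 14 galactose, maltose and sucrose genes had a median of 58.4. *GAL3* (17.1), *GAL10* (37.3), *GAL7* (39.7) and *GAL1* (88.1), which sense and use galactose, were low, and so was *MAL32* (32.1, shared probe set). *GAL80* (1279), the repressor that keeps the galactose genes off, and *SUC2* (778), invertase, were the only 2 above the median of all genes. None of the 14 was below the background.

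In peroxisomes, where fatty acids are broken down, the enzymes *POT1* (3.58, not above background), *POX1* (11.6) and *CTA1* (30.8) were low, as was *PEX18* (8.55), an import factor. The highest peroxisomal genes were *PEX11* (1415) and *PEX8* (1062). The median of the 38 was 224, and 7 were above the median of all genes.

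Respiration was not low. The 39 genes of the respiratory chain and ATP synthase had a median of 1608, at percentile 81.1, and 35 were above the median of all genes. *ATP1* (7879) and *ATP15* (4712), subunits of the ATP synthase, were the highest. *NDE2* (16.5), an external NADH dehydrogenase, and *CYC7* (74.96), the minor form of cytochrome c, were the lowest. *CYC1* (608), the main form of cytochrome c, exceeded *CYC7* by 8.12-fold, and *COX5A* (2589) exceeded *COX5B* (666), its low-oxygen counterpart, by 3.89-fold.

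The 18 genes of the TCA cycle had a median of 2195, led by *IDH2* (6241) and *ACO1* (6163), which act at the entry of the cycle and also in glutamate synthesis. *SDH1* (525), a subunit of succinate dehydrogenase, and *CIT3* (26.25), a minor citrate synthase, were the lowest. *CIT2* exceeded *CIT1* (1974), the mitochondrial form, by 1.998-fold and *CIT3* by 150-fold; with 50 added, the log2 ratio of *CIT2* to *CIT3* went from 7.23 to 5.71. The malate dehydrogenases *MDH3* (2011), *MDH2* and *MDH1* (1576) were within 1.28-fold of each other and were not told apart.

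The 72 mitochondrial ribosomal proteins had a median of 600, with 52 above the median of all genes and none among the 545 highest. *MRPS12* (2697) and *MRP8* (1812) were the highest, and *RSM22* (112) and *MRP20* (139) the lowest. The cytosolic ribosomal proteins lay at 10573 and 9970, as given above, and only *RPL15B*, *RPL41A* and *RPS9A* among them lay below the brightest mitochondrial one.

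The medians of the reserve carbohydrate and stress lists lay below the middle. Still, 8 of the 20 reserve carbohydrate genes and 22 of the 48 stress genes were above the median of all genes. The 20 trehalose and glycogen genes had a median of 324, with *UGP1* (4728), which makes UDP-glucose also for the cell wall, and *TPS3* (1500) at the top and *GLG1* (59.3) and *GAC1* (17.9) at the bottom. The 48 general stress genes had a median of 281 and the wide range from *TRX2* (8895), a thioredoxin, and *GPD1* down to *XBP1* (14.0) and *SPG1* (12.8). On the *spt3Δ* array the median of the stress list stood at percentile 23.5, against 37.1 in WT.

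The biosynthesis lists had medians well above that of all genes. The 65 amino acid synthesis genes had a median of 2811, and 60 were above the median of all genes. *HOM6* (10306) and *HOM2* (9817), which lead to threonine and methionine, were the highest. *ARG3* (190), of arginine synthesis, and *GDH3* (81.3), a glutamate dehydrogenase that glucose represses, were the lowest. The 19 purine synthesis genes had a median of 3211, from *GUA1* (8433) and *IMD4* (6973), on the path to GMP, to *PRS2* (978) and *IMD2* (754, shared probe set).

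Lipid synthesis gave similar levels. The 25 ergosterol genes had a median of 3504, with *ERG2* (8786) and *ERG11* (7682) highest and *ERG12* (871) and *ERG29* (363) lowest. The 14 fatty acid synthesis genes had a median of 4789, and all 14 were above the median of all genes. *FAS1* (8034), the β subunit of fatty acid synthase, and *ELO3* (7560), an elongase, led them, and *FAA1* (1362) and *SCT1* (649) were the lowest.

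Protein folding genes separated into constitutive and inducible members. Of 26 chaperone genes, 14 were among the 545 highest, led by *SSA2* and *SSB1* (12409, shared probe set). The heat-inducible *SSA4* (218) and *SSA3* (160) were 61.6-fold and 84.0-fold below *SSA2*, and *SSA1* (5693) was 2.36-fold below it. The constitutive Hsp90 gene *HSC82* (10435) exceeded the inducible *HSP82* (1372) by 7.60-fold.

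The proteasome, which degrades ubiquitin-tagged proteins, had a narrow range of signals. Its 33 subunit genes had a median of 2072, all between 1093 and 3521 and all above the median of all genes. *PRE6* (3521) and *RPN1* (3083) were the highest, and *RPT2* (1093) and *RPN11* (1115) the lowest. The median stood at percentile 84.6 in WT, 88.0 in *spt3Δ* and 87.1 in *spt8Δ*.

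In the vacuole, the 15 subunits of the proton-pumping ATPase had a median of 5599, from *VMA3* (9289) and *VMA1* (8402) down to *VMA6* (2943) and *STV1* (1641). *STV1* is the subunit of the Golgi form, and its vacuolar counterpart *VPH1* had 7113. The 6 vacuolar proteases were led by *APE3* (8145) and *PEP4* (6733), and *APE1* (699) and *PRB1* (275) were lowest. By contrast the 34 autophagy genes had a median of 156, with *ATG27* (2423) and *ATG41* (1409) at the top, *ATG29* (15.6) near the bottom and *ATG16* (3.32) not above background.

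At the cell surface, the 35 genes for cell wall proteins and enzymes had a median of 5400, and 23 were among the 545 highest. *CCW12* and *SCW4* (11266) were the highest, and *NCA3* (178) and *PIR3* (61.2) the lowest. The 34 transport genes ranged from *PMA1* (10191), the proton pump of the plasma membrane, and *PHO84* (9307), the high-affinity phosphate transporter, to *PMA2* (78.7) and *SUL1* (7.93), a sulfate permease. *PMA1* exceeded *PMA2* by 129-fold. Of the ammonium permeases, *MEP3* (1356) exceeded *MEP1* (286) by 4.75-fold and *MEP2* (207) by 6.55-fold.

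Genes that respond to nutrient shortage were not all low in this rich medium. The 14 phosphate starvation genes had a median of 2846, and 6 were among the 545 highest: *PHO84*, *VTC1* (8425), *PHO11* (6475, shared probe set), *VTC3*, *VTC4* and *SPL2*. *PHM8* (139) and *GIT1* (37.4) were the lowest. This was the list whose place depended most on the array, at percentile 88.3 in WT, 51.6 in *spt3Δ* and 72.0 in *spt8Δ*. The WT signal of *SPL2* was 3560, against 129 in *spt3Δ* and 160 in *spt8Δ*. *PHO5*, the secreted phosphatase, had 3178, 297 and 341 in the same order.

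The 18 iron uptake genes had a median of 996, from *FRE1* (4585), a reductase, and *FET3* (3506), the oxidase of high-affinity uptake, to *FRE2* (88.6) and *HMX1* (42.3). The 20 nitrogen catabolite genes had a median of 114. Among them *ASP3-1* (8347), a secreted asparaginase present in several copies and read by a shared probe set, and *CAR1* (2161), arginase, were high, *DAL1* (17.4) was low and the regulator *DAL80* was not above background.

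The lists of chromatin and transcription genes ran from percentile 95.8 for histones to percentile 31.9 for silencing factors. The 8 histone genes had a median of 7352, from *HTA1* (12147) and *HHT2* (8957) to *HHT1* (6527) and *HTZ1* (2586), which encodes the variant of H2A. RNA polymerase subunits ordered as shared subunits (median 2801), polymerase I (2045), polymerase II (1091) and polymerase III (499), with 7, 7, 7 and 10 genes. *RPB8* (6324) and *RPO26* (3838) led the shared subunits, *RPA135* (4794) and *RPA190* (3559) those of polymerase I, *RPB7* (2679) and *RPB2* (1514) those of polymerase II, and *RPC11* (1406) and *RPO31* (1295) those of polymerase III.

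The lowest polymerase members were *RPC19* (2044) and *RPB5* (1723) of the shared subunits, *RPA49* (1486) and *RPA43* (600) of polymerase I, *RPB3* (858) and *RPB9* (718) of polymerase II, and *RPC37* (421) and *RPC53* (233) of polymerase III. The ranges of neighbouring groups overlapped. No order of the 4 groups was tested.

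The 19 SAGA subunit genes had a median of 310, at percentile 40.4, and none was among the 545 highest. *TAF9* (1355) and *TAF6* (770), shared with TFIID, were the highest, and *SPT20* (160) and *SGF29* (54.3) the lowest. *SPT3* and *SPT8*, given above, lay in the middle of the complex, and *GCN5*, the acetyltransferase, had 265. Their partner *SPT15*, the TATA-binding protein, had 2440, the highest of the 10 genes of TFIID outside SAGA, followed by *TAF14* (1126), with *TAF8* (162) and *TAF7* (75.4) at the bottom.

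The 24 Mediator genes had a median of 296, from *SRB2* (1632) and *RGR1* (636) to *SSN8* (91.0) and *NUT2* (17.9). The 15 silencing factors had a median of 237, and 2 were above the median of all genes. *RAP1* (606) and *SAS5* (479) were the highest, and *YKU80* (98.2) and *RIF2* (41.8) the lowest. The proteins of the Sir complex, which coats silenced chromatin, were encoded by *SIR2* (362), *SIR4* (299) and *SIR3* (190), and *SIR1* (120) acts at the silencers of the silent mating cassettes.

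Cell cycle genes, which are transcribed in a part of the cycle only, were read as an average over an unsynchronised culture. The 9 cyclins lay between 253 and 728, with *CLN2* (728) and *CLB1* (683) highest and *CLB4* (254) and *CLB2* (253) lowest. *CLN2* was 1.22-fold above *CLN1* (597) and 1.90-fold above *CLN3* (382) in WT, and this order did not hold on the other arrays, where *CLN1* was the brightest. The 38 replication genes had a median of 469, from *POL30* (3391), the sliding clamp, and *RFA3* (2692) to *MCM10* (58.9) and *SLD3* (45.8).

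Other nuclear functions filled the middle. The 32 nuclear pore genes had a median of 736, from *SEC13* (2685), which also acts in vesicle coats, and *NUP188* (1450) to *GLE1* (196) and *NUP42* (165). The 50 splicing factors had a median of 215, with *SNU13* (9941), also a protein of rRNA-modifying particles, and *PRP43* (1715), also a helicase of ribosome assembly, far above *LUC7* (84.5) and *PRP18* (37.0).

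The pheromone pathway that a haploid cell keeps ready lay in the middle of the order. The 31 genes had a median of 359, with *AGA1* (1259) and *STE4* (1005), the β subunit of the G protein, highest, and *FIG1* (14.5) and *PRM2* (10.1), which act in mating cells, lowest. Meiosis, which a haploid does not enter, had low signals: the median of 63 genes was 30.7, none was above the median of all genes, and 48 were in the lowest 10%. *SPR6* (321) and *SPO73* (301) were the highest, *IME1*, the inducer of meiosis, had 91.8, and *NDT80*, the activator of the middle genes, had 45.1.

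Among meiotic genes, 12 of 63 were not above background, against 2.0% of all genes. *HOP2* (2.19) and *MND1* (2.82) encode partners in strand exchange, *MEI5* (0.878) acts with the meiotic recombinase, and *MEK1* (5.21) encodes a checkpoint kinase. *SPR3* (5.28) and *SPR28* (4.71) encode septins of sporulation, *SPO74* (5.62) a spindle pole body protein, and *OSW1* (6.10), *CDA2* (6.26) and *SPS2* (0.454) proteins of spore formation. *AMA1* (6.34) encodes a meiotic activator of the anaphase-promoting complex and *IME4* (4.11) an RNA methyltransferase. The recombination gene *SPO11* (35.005) and the recombinase *DMC1* (36.4) were low but above background.

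The subtelomeric families were mixed, and sharing of probe sets differed between them, with 13 of 13 *PAU* genes, 3 of 9 *COS* genes and none of the 6 hypoxic genes. The 9 *COS* genes ran from *COS2* (7624) and *COS4* (3478), both with shared probe sets, to *COS10* (27.3) and *COS111* (25.2). All 13 *PAU* genes have a shared probe set, and 3 of them, *PAU5*, *PAU17* and *PAU23*, have an unshared one too. The *PAU* genes ran from *PAU18* (898) and *PAU23* (720) to *PAU3* (18.1) and *PAU21* (0.147, not above background). The value of *PAU23* averages probe sets at 143 and 3626. The 6 hypoxic cell wall genes ran from *TIR1* (2618) and *TIR3* (955) to *TIR4* (119) and *DAN1* (52.2). The 5 genes of flocculation and invasive growth, from *FLO9* (305, shared probe set) and *FLO8* (161) to *FLO10* (91.2) and *FLO1* (70.9), were all below the median of all genes.

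A few other sets of related genes were read side by side. Of the superoxide dismutases, the cytosolic *SOD1* (9513) exceeded the mitochondrial *SOD2* (2183) by 4.36-fold. Of the catalases, the cytosolic *CTT1* (77.8) exceeded the peroxisomal *CTA1* by 2.52-fold, and both were near the bottom of the order.

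Many bright genes were in no list: 200 of the 545 highest. The following were picked after their values were seen. *EGD1* (11602) binds nascent chains at the ribosome, *IPP1* (11304) splits pyrophosphate, *AHP1* (11078) is a peroxiredoxin and *SEC53* (11026) makes mannose phosphate for glycosylation. *GCN4* (9123), the activator of amino acid synthesis, and *YDR524C-B* (10737), a gene without a standard name, were as bright as many ribosomal protein genes.

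The 109 genes not above background had a median signal of 3.32, and 24 of them were under 1. They included 53 genes known only by their systematic name, which was 48.6% of the group, while such genes were 9.16% of all. Of the 499 genes with only a systematic name, 10.6% were not above background, against 1.13% of the 4950 with a standard name. Genes with only a systematic name also had a lower median, 139 against 467, and 15 of them were among the 545 highest.

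Among the 109, 24 belonged to a list and 85 to none, while 24.1% of all genes were in a list. The lists with such members were meiosis and sporulation (12 of 63), hexose transporters (5 of 17) and auxotrophic markers (2 of 5). The *PAU*, autophagy, gluconeogenesis, nitrogen catabolite and peroxisome lists had 1 each, of 13, 34, 14, 20 and 38 genes. Over all genes the share not above background was 2.0%. Further meiotic genes were found among the 85 after their values were seen: *SAE3* (0.641), *CSM4* (0.602), *ECM11* (0.771), *GMC2* (3.13), *SPO19* (3.40) and *SMA1* (2.16). *HMRA1* (0.755), the a1 gene kept silent at the *HMR* locus, was also in the group.

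The other genes of the silent mating cassettes could not be read in this way. *HMLALPHA1* (1558) and *HMRA2* (765) share sequence with the genes active at *MAT* in an α cell and have shared probe sets, so their signal cannot be told apart from that of *MAT*. *HMRA1* has no copy at *MAT* in an α cell and was not above background on any array, with 2.41 in *spt3Δ* and 2.93 in *spt8Δ*.

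The same genes were then read on the other arrays, each against its own background of 6.67 in *spt3Δ* and 8.61 in *spt8Δ*. Of the 109, 76 were above background on neither mutant array, 30 were above it in *spt3Δ*, 16 in *spt8Δ* and 13 in both. None had a signal over 18.5 on either. A gene near the background can thus change sides between arrays, while none of the 109 became a gene of the middle range.

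Position along the chromosome was described from the gene order of the R64 assembly. Only the genes measured here were counted, from the end of each of the 32 arms, so genes without a named probe set were skipped. The 2 outermost genes of each arm had a median signal of 80.8, the next 2 had 103, places 5 to 8 had 165, and places 9 to 16 had 439. From place 31 on the median was 440. Levels thus rose over about 8 measured genes from the end and were flat from there.

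**Figure D5:**
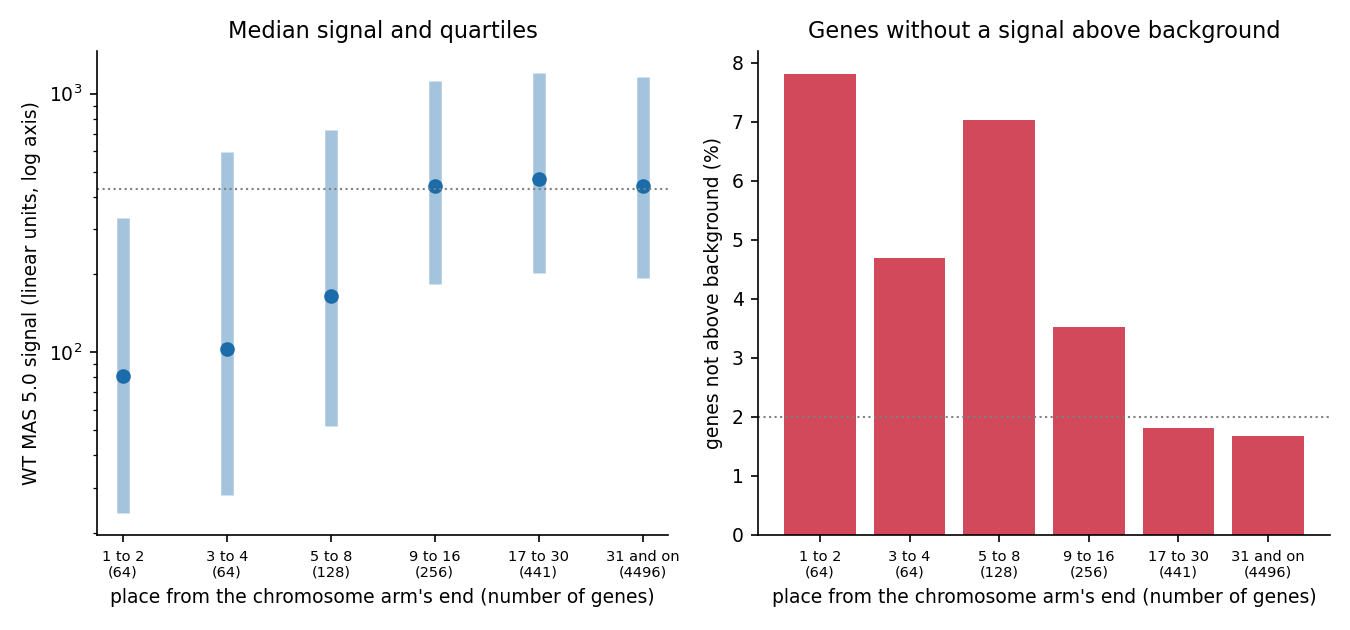
Left, the median WT MAS 5.0 signal (points, log axis) and quartiles (bars) of genes by their place among measured genes from the chromosome arm's end, with the number of genes in brackets and the median of all genes dotted. Right, the percentage of genes not above background, with 2.0% of all genes dotted; it is 7.81% at places 1 to 2 and 1.67% from place 31 on.

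Genes not above background were also more frequent near the ends. They were 17 of the 256 genes at the 8 outermost places, or 6.64%, against 92 of 5193 genes, or 1.77%, further in. By place their share was 7.81% at places 1 to 2, 4.69% at places 3 to 4 and 7.03% at places 5 to 8. It was 3.52% at places 9 to 16, where the median signal was already level, and 1.67% from place 31 on. Those 256 genes were 4.70% of all and held 15.6% of the group, on 14 of the 32 arms. In the 2 outermost places 26 of 64 genes had shared probe sets, and the part of this in their low signals was not tested. Leaving out shared probe sets gave 7.08% for the 8 outermost places.

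The arms differed from each other. The median of the 8 outermost genes ran from 11.6 on the left arm of chromosome I to 1440 on the right arm of chromosome VI. That right arm of VI also carried the lowest gene of the whole array at its end, *YFR057W*, a gene used in studies of telomeric silencing, with 0.090 in WT, 0.552 in *spt3Δ* and 0.196 in *spt8Δ*. The next measured genes inwards, *IRC7* (1546) and *HXK1*, were at percentiles 80.4 and 78.0.

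Bright genes occurred near ends too, with 13 of the 256 among the 545 highest, but they were less frequent there. The share of genes among the 545 highest was 3.1% at places 1 to 2, 1.6% at places 3 to 4 and 7.8% at places 5 to 8. From place 31 on it was 10.2%. Of the 13 bright genes near ends, the highest were *BGL2* (9150), a glucanase of the cell wall, *COS2*, *URA1* (7209), of pyrimidine synthesis, *PHO11* and *ZUO1* (6460), a chaperone on the ribosome. *COS2* and *PHO11* were the outermost probed genes of their arms, and both have shared probe sets.

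On the right arm of chromosome III, where the study looked for the silencing boundary, WT signals were low over the outer genes. *YCR108C*, the outermost, had 8.46, *AAD3* had 87.1 (3 probe sets, shared) and *RDS1* had 73.1. The value of *AAD3* averages probe sets from 37.6 to 358, a range of 9.51-fold, so *AAD3* and *RDS1* were not told apart. *ADH7* (53.4), *PAU3*, *YCR102C* (34.3), *YCR101C* (4.83, not above background), *YCR099C* (66.1) and *GIT1* followed, and then *HMRA1* and *HMRA2*. *OCA4* (254), the next measured gene inwards, was the outermost with an unshared probe set above 100. All of these except *HMRA2* thus lay under the median of all genes in WT.

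Adjacent genes did not have like signals. Over 5017 pairs of neighbours the Spearman correlation was 0.064, with 0.119 for 1287 divergent pairs, 0.034 for 2400 tandem pairs and 0.067 for 1330 convergent pairs. These are correlations across genes, which are not independent replicates, and each gene enters up to a pair of times. In 57 pairs both genes were among the 545 highest, and in 6 both were not above background, among them *DAK2* and *ZNF1* and, next to it, *YFL051C*. Of all genes, 10% were among the 545 highest and 2.0% were not above background. The number of such pairs expected for unrelated neighbours was not computed, so these counts do not show whether bright or silent genes cluster. Between whole chromosomes the median ran from 307 on I and 327 on VI to 487 on XI.

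The order as a whole was much the same on the 3 arrays. Across genes, the Spearman correlation of WT signals with those of *spt3Δ* was 0.96 and with those of *spt8Δ* 0.98. Of the 545 highest WT genes, 486 were among the 545 highest in *spt3Δ* and 499 in *spt8Δ*, and of the 54 highest, 39 and 46. *RPS31* had 15308, 9890 and 11417 on the WT, *spt3Δ* and *spt8Δ* arrays. With 1 array per strain, a difference between strains and a difference between hybridisations cannot be told apart.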

How the data were processed

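Total RNA from 1 culture per strain was labelled with a 3′ in vitro transcription kit and hybridised to Affymetrix Yeast Genome 2.0 arrays. The intensity values deposited by the authors are linear MAS 5.0 signals, 1 column per array, made with Affymetrix Expression Console (version not given in the sources used here). No further normalization was applied, and log2 was taken only for means and ratios. Of 10928 probe sets, GEO's platform annotation named 7245: 5498 of *S. cerevisiae*, 1746 of *S. pombe* and 1 with several genes, left out. Symbols were updated through RefSeq's R64 gene table (12 changed), which was used for names and gene order only, as no build is named for the files. Probe sets of 1 gene were averaged as log2 values (5449 genes, 47 with several and 125 with a shared probe set). Background was the 95th percentile of *S. pombe* probe sets.

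The members and lists were chosen with earlier results of these data known. Some list entries that named no member of the complex or pathway were taken out after the values had been seen. Named genes were the 30 highest, the 2 highest and 2 lowest of each list, listed genes not above background, related gene sets, markers, the 5 genes on each side of the background and the 3 outermost of arm III right; others are marked as picked later or stand beside these as members of the same list or region. Alternatives changed the background percentile (90 or 99), shared probe sets, the probe set rule, the filter, the array, the number of places and an added signal of 50. The code for signal ranks and background was run on simulated arrays. Their silent genes were drawn from the *S. pombe* signals that set the background, and the other genes were placed well above it. The simulation could therefore not check calls near the background. Python 3.11.15, NumPy 2.4.6, pandas 2.3.3, SciPy 1.17.1 and Matplotlib 3.10.9 were used. Arrays have no count depth, and the number of arrays, 1 per strain, limits the precision.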

Additional observations from a re-analysis of the deposited data

Results flagged for a closer look

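Signals also appeared outside the named genes. Of 3517 probe sets that name no gene and are not controls, 399 were above the WT background of 7.17, which was 11.3%; the median of those 399 was 36.2, 39 of them were over 1000 and the highest had 12642. Control probe sets for rRNA gave signals too, although the kit primes on poly(A). The 17 *S. cerevisiae* rRNA controls lay between 226 and 9513 in WT, the latter for the 5′ end of 18S rRNA. The 18S rRNA control of *S. pombe* at the 5′ end had 6255 in WT, 3348 in *spt3Δ* and 4126 in *spt8Δ*, above the *S. pombe* background; 18S rRNA is much conserved between both yeasts, and the cause of the signal was not tested. These controls name no gene and were not part of the background.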

How the results depend on the processing

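The 109 genes not above background became 88 with the 90th percentile and 162 with the 99th, 110 without shared probe sets and 109 with the brightest probe set. The share of the summed signal in the 54 highest genes was 10.03% and became 10.08% with the brightest probe set and 10.08% with the background subtracted. Of 53 lists, 13 had a median in the top 10%, and 13 or 14 did under the alternatives. The place of a list's median moved outside its own interval (95%, from binomial order statistics over the members) for 5 lists read on the *spt3Δ* array (phosphate starvation percentile 51.6, general stress 23.5, proteasome 88.0, ribosome assembly 77.7, mitochondrial ribosomal proteins 64.0) and for 1 on *spt8Δ* (proteasome 87.1). This interval reflects the spread between the genes of a list and not the error of an array. It therefore cannot tell whether a list differed between arrays, and a list of like signals leaves it more easily. The proteasome left it on *spt8Δ* from 84.6, while phosphate starvation stayed inside, from 88.3 to 72.0. Without shared probe sets the *PAU* list moved from percentile 24.5 to 76.6, with 3 genes left. With genes above background only, no list moved outside its interval, although the auxotrophic markers (80.4, from 2.68, with 2 of 5 genes dropped) and hexose transporters (20.4, from 6.20, with 5 of 17 dropped) went up; the interval of the 5 markers spans all of them, so staying inside it says little. With 50 added to each signal, 30 of 32 ratios between related genes stayed within 1 within-gene SD and 2 moved, *PDC1* to *PDC6* (log2 7.21) and *CIT2* to *CIT3* (5.71). Planned descriptions of promoter motifs and of protein composition were not run, since no promoter or protein sequences were used here. No paired analysis was possible because each strain had 1 array and no test was made. With 1 WT array, differences between neighbours in the order cannot be told apart from array noise.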
